A study of Rattus norvegicus with 2 samples.

Results

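Potassium channel genes other than those of the ATP-sensitive channels were described in cultured rat myometrial progenitor cells, which give rise to uterine smooth muscle. The members are the 88 genes, of 17327 listed, whose symbol starts with Kcn, 1 or more letters and a number, leaving out Kcnj8 and Kcnj11. RNA was sequenced from 2 samples, 1 labelled DES-exposed and 1 labelled VEH-exposed, which are common abbreviations of diethylstilbestrol and vehicle. Each sample pooled cells from the myometrium of 5 rats at passages 1 to 3 (n = 1 library per group). The organism label is rat, although the series' design text speaks of murine cells. The sources used here give no strain, age, dose or time of exposure. Which of the groups stands on top of the deposited fold change is not stated. The library whose reads push that fold change up is here named the numerator library and the other the denominator library, so a difference between them has no known direction with respect to DES.

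Potassium channels let potassium leave the cell and so hold the membrane near its resting potential or return it there after excitation. In the myometrium they limit how often and how long the muscle is excited and contracts. Voltage-gated subunits open on depolarisation, activated subunits open with intracellular calcium or sodium, tandem-pore channels carry background current and inward rectifiers pass current best near rest. Modifier subunits form no channel alone and join voltage-gated pores, and auxiliary subunits bind pores and change their gating, trafficking or calcium sensitivity.

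The reads of both libraries were recovered from the deposited means. The numerator library held 106599579 reads in the listed genes and the denominator library 104793348. A mean is over both libraries, in reads divided by the library's size factor. A member was counted as higher or lower where its ratio of numerator to denominator library was 2-fold or more, its mean was 20 or more and 1 lay outside the ratio's 95% counting interval. Reads were not divided by transcript length, so the order of genes by reads is not an order of their levels. With 1 library per group no difference has a replicate check, and intervals cover counting error only. Where 1 library had 0 reads, a fold is given as "at least" the value that a floor of 3 reads in that library sets. The end of the counting interval lies nearer to 1 than this value and is given with it. In cultures, fewer cells of a type and less RNA per cell cannot be told apart.

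Most potassium channel genes had few or no reads. Of the 88 members, 36 (40.9%) had a mean of at least 20, against 64.7% of all listed genes. A further 29 members (33%) were read with a mean under 20, against 11.6% of all genes. The other 23 (26.1%) were listed at 0, close to the 23.7% of all genes. The members nearest the limit were Kcnh6 and Kcnc2 above it, with means of 22.1 and 22.3, and Kcnj9 and Kcnk4 below it, both with a mean of 15.

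The subfamilies differed in how many members were read. All 3 Kcnd genes, all 3 Kcnab genes, both Kcnt genes and the single Kcnf gene reached a mean of 20. Neither the 4 Kcng genes nor Kcnma1 did. Of the 8 Kcna genes only Kcna4 reached it, and of the 8 Kcnh genes 3 did, with none of that subfamily at 0. By class, 10 of 16 auxiliary subunits, 4 of 7 activated subunits, 6 of 13 tandem-pore channels, 10 of 29 voltage-gated subunits, 3 of 10 modifiers and 3 of 13 inward rectifiers reached it.

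**Figure D1:**
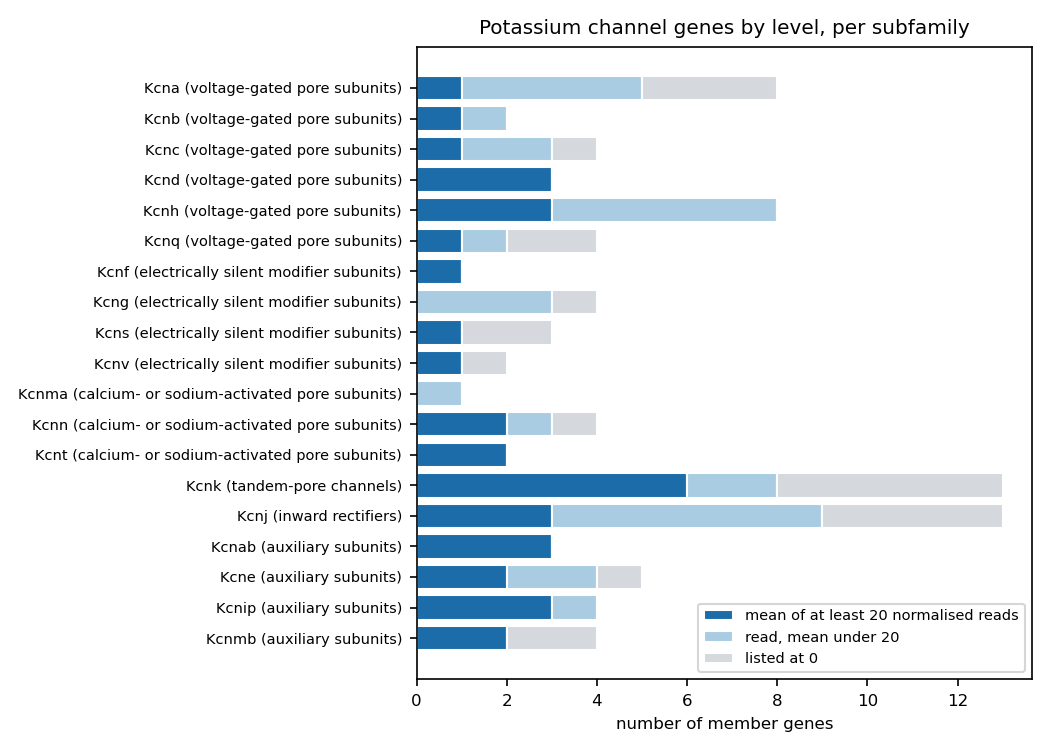
Number of potassium channel genes in each of 19 subfamilies (rows, with their class) with a mean of 20 or more normalised reads, with a lower mean, or listed at 0. Kcnd, Kcnab, Kcnt and Kcnf have every member at or above the limit, and Kcng and Kcnma have none.

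The genes listed at 0 include, among voltage-gated subunits, Kcna1, Kcna2, Kcna10, Kcnc4 and Kcnq3. Among modifiers they are Kcng3, Kcns1, Kcns2 and Kcnv1, and among activated subunits Kcnn2. The silent tandem-pore genes are Kcnk9, Kcnk10, Kcnk13, Kcnk16 and Kcnk18, the inward rectifiers Kcnj1, Kcnj3, Kcnj5 and Kcnj13, and the auxiliary subunits Kcne1, Kcnmb2 and Kcnmb3. These genes had 0 reads in both libraries. A count of 0 still allows an expected count of up to about 3 reads in a library, so low expression of these genes was not detectable at this depth. Several are best known from neurons (Kcnq3, an M-type channel gene, and Kcna1 and Kcna2 of axons) or from epithelia (Kcnj1 of the kidney).

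Of the 36 members with a mean of at least 20, 16 (44.4%) were higher and 11 (30.6%) lower in the numerator library, and 9 stayed within the limit. Of all genes with this mean, 13.9% were higher and 12.7% lower. The median log2 ratio of these members was 0.74, against 0.01 over all such genes. Their median distance from 0 was 2.21 on this scale, against 0.52 over all such genes. At 8-fold or more, 13 members (36.1%) were higher and 3 (8.33%) lower, against 5.12% and 2.54% of all such genes. A gene with reads in 1 library passes this mean through that library alone. That held in full for 5 of the 36 members, 4 with reads only in the numerator and 1 only in the denominator library (11.1% and 2.78%, against 1.43% and 0.187% of all such genes). Fewer than 4 reads were found for 9 members in the denominator and 2 in the numerator library. Of all 11212 such genes, these counts were 248 and 58. All of these members are among those at 8-fold or more. The 8-fold counts thus rest largely on genes that reached the mean through 1 library.

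Genes with few reads pass the limit more often, so the counts were set beside all genes of like mean. With a mean from 20 to under 100, 8 of 11 members (72.7%) were higher or lower, near the 67.1% of all genes. From 100 to under 1000 it was 13 of 17 members (76.5%), against 43.3%. From 1000 to under 4000 it was 6 of 8 members (75%), against 17.5%.

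**Figure D2:**
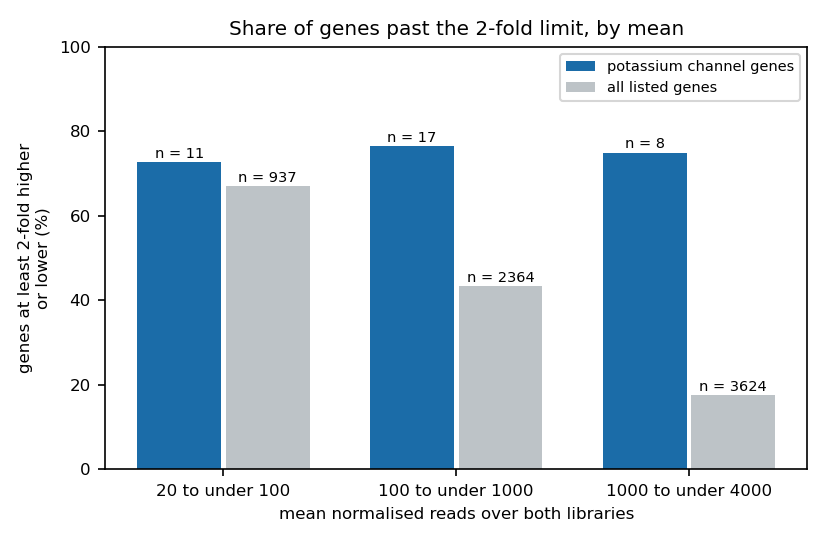
Share of genes (%) at least 2-fold higher or lower in the numerator library, for potassium channel genes and for all listed genes, in 3 ranges of mean normalised reads; the number of genes stands above each bar. The member share stays between 72.7% and 76.5%, while that of all genes falls to 17.5% in the highest range.

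The voltage-gated subunits were mostly higher. The share to set beside this and each later class count is that of all genes with a mean of at least 20. Of those, 13.9% were higher and 12.7% lower. That share is too low for members with a mean under 100. From 20 to under 100, 40.7% of all genes were higher and 26.5% lower. The 11 members there are Kcnh1, Kcnh6, Kcnc2, Kcnd2, Kcnf1, Kcnj2, Kcnj4, Kcnj14, Kcnmb4, Kcnab2 and Kcnip2. Of 10 voltage-gated subunits with a mean of at least 20, 6 were higher, 1 lower and 3 within the limit (median log2 ratio 2.39). Kcnh2, the ERG channel that carries a repolarising current in heart and smooth muscle, was read 3077 times in the numerator and 41 times in the denominator library. Nearly all of its reads lay in the numerator library, a 73.7-fold difference (interval 54.2 to 103). Its relative Kcnh1, of the ether-a-go-go branch, had 115 and 0 reads, at least 37.6-fold higher by the floor (lower end of the interval 30.1). Kcnh6, another ERG gene, ran the other way with 11 and 33 reads, 3.05-fold lower (interval 1.51 to 6.70).

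Kcnq5, an M-type channel gene also used by smooth muscle, was read 4678 times in the numerator and 1780 times in the denominator library. It was well covered in both libraries and 2.58-fold higher (interval 2.44 to 2.73). Kcnc2, a fast delayed rectifier of neurons, had 42 and 3 reads (13.7-fold higher, interval 4.39 to 69.3).

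The Kcnd genes encode the pores of transient A-type currents. Kcnd1 was read 2325 times in the numerator and 2921 times in the denominator library, a ratio of 0.782 that lay within the limit. Kcnd3 had 267 and 518 reads and lay just inside it, at 1.98-fold lower (interval 1.70 to 2.30). Kcnd2 had 55 and 3 reads and was 18-fold higher (interval 5.85 to 90.0). Kcnd1 and Kcnd3, which hold the bulk of this subfamily's reads, thus stayed within the limit, and Kcnd2 did not. Kcna4, another A-type pore, had 143 and 76 reads (ratio 1.85, interval 1.39 to 2.47), within the limit.

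All 3 modifier subunits with a mean of at least 20 were higher. Kcns3 was read 1705 times in the numerator and 9 times in the denominator library, a 186-fold difference (interval 97.8 to 408). Kcnf1 had 109 and 2 reads (53.5-fold, interval 14.5 to 448). Its mean of 55.0 lies in the range where 67.1% of all genes were higher or lower. Kcnv2 had 405 and 125 reads, the only one of the 3 with more than a few reads in the denominator library (3.18-fold, interval 2.60 to 3.92). Among the modifiers below this mean, Kcng1 with 14 and 9 reads and Kcng4 with 4 and 5, had intervals that include 1.

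The promoter of Kcns3, the gene with the largest log2 ratio (pseudocount of 1) among members for which RefSeq's table holds one, and that of Kcnmb1, the member with the most reads in the denominator library, are shown to set these opposite genes side by side. Each line gives the 250 bases before an annotated start in GRCr8, 5′ to 3′ on the gene's strand, with CG dinucleotides in capitals. Kcns3 has 2 starts, at chr6:39584106-39584355 and chr6:39583395-39583644 (both minus strand), and Kcnmb1 has 1, at chr10:19061849-19062098 (plus strand).
Kcns3 first window: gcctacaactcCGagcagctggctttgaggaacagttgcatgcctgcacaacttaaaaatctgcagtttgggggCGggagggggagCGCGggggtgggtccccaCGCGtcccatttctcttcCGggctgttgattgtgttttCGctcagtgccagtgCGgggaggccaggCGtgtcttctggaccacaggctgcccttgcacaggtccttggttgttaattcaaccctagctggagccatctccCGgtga
Kcns3 second window: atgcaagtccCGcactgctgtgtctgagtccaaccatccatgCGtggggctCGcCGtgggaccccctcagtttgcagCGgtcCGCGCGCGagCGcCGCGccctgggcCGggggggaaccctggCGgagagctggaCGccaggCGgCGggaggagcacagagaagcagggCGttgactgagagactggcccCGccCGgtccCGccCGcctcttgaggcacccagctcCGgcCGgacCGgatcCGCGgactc
Kcnmb1 window: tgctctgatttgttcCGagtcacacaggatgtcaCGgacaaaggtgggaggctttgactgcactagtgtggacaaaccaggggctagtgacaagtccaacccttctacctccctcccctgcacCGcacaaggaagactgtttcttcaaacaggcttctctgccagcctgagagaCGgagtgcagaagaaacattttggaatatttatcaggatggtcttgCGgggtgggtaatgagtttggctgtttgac

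The Kcns3 windows hold 11 and 27 CG dinucleotides and the Kcnmb1 window 5, where the median of all 33469 windows of the table is 5. The letters GGGCGG, searched on both strands, occur in both Kcns3 windows and not in that of Kcnmb1. They occur in 30.5% of all windows. Searched on both strands as well, the full estrogen response element GGTCANNNTGACC, TATAAA and the CArG box known from smooth muscle genes are in none of the 3 windows; they occur in 0.0239%, 12.9% and 1.5% of all windows. These are matches of letters and say nothing of binding. Kcnh2, Kcnk1, Kcnk3 and Kcnn4 have no entry in that table, which holds 61 of the 88 members (69.3%), too few to compare promoters over the family.

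Of the activated pore subunits, 3 of 4 with a mean of at least 20 were higher and none lower. Kcnn4, the intermediate-conductance calcium-activated channel found in proliferating and blood cells, was read 478 times in the numerator and 0 times in the denominator library. This is at least 156-fold higher by the floor (lower end of the interval 127). Kcnn1, a small-conductance calcium-activated channel, had 344 and 33 reads (10.2-fold, interval 7.15 to 15.1). Kcnt2, a sodium-activated channel, had 223 reads and 1 read (219-fold, interval 38.9 to 8689). Its relative Kcnt1 had 278 and 139 reads, a ratio of 1.96 that lay just within the limit (interval 1.60 to 2.43).

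Kcnma1, the pore of the large-conductance calcium-activated channel that is prominent in myometrium, had 7 reads in the numerator library against 1 read in the denominator library, with an interval that includes 1. Kcnn3, a small-conductance channel studied in the uterus, had 4 and 0 reads. Kcnmb1, the smooth muscle auxiliary subunit of the Kcnma1 channel, was read 964 times in the numerator and 5382 times in the denominator library. Its mean also allows 6383 and 60 reads, a pair that opposes the sign of the authors' deposited fold change and was not used. With the pair used it was 5.68-fold lower (interval 5.31 to 6.09) and held 54.5% and 73.7% of all auxiliary subunit reads in these libraries. Kcnmb4, an auxiliary subunit of the same channel best known from brain, had 13 and 51 reads (3.99-fold lower, interval 2.14 to 8.01). Both auxiliary subunits of this channel with a mean of at least 20 were thus lower, and the pore gene had few reads in either library. Whether the annotation used for counting held the whole of Kcnma1 could not be checked, so its few reads do not show that it was little expressed.

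The auxiliary subunits were mostly lower. Of 10 with a mean of at least 20, 7 were lower, 1 higher and 2 within the limit (median log2 ratio -1.58). Of the 17 voltage-gated, modifier and activated subunits with this mean, 12 were higher and 1 lower (median 3.40). This grouping was not planned beforehand and leaves out the other pore classes. Tandem-pore channels with this mean held 2 higher and 2 lower (median -0.03), and inward rectifiers 1 and 1 (median -0.51). The values thus show no general split between pore and auxiliary subunits. No test of the differences between classes could be run with 1 library per group.

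Kcne2, an auxiliary subunit known to assemble with Kcnh2 and other pores, was read 0 times in the numerator and 277 times in the denominator library. This is at least 94.0-fold lower by the floor, and the upper end of the ratio's interval is 0.0132. Kcne2 and Kcnh2 were thus read almost wholly in different libraries. Kcne4, known to inhibit voltage-gated pores, had 130 and 633 reads and was 4.96-fold lower (interval 4.10 to 6.03). Kcnab1 and Kcnab3, cytoplasmic partners of Kcna pores, ran in opposite directions. Kcnab1 had 261 and 58 reads (4.42-fold higher, interval 3.31 to 5.98). Kcnab3 had 15 and 205 reads (13.9-fold lower, interval 8.24 to 25.3). Kcnab2 had 101 and 88 reads, with an interval that includes 1.

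The Kcnip genes encode calcium-binding partners of Kcnd pores. Kcnip3 was read 106 times in the numerator and 234 times in the denominator library, which is 2.25-fold lower with an interval of 1.78 to 2.86. Kcnip4 had 142 and 330 reads (2.37-fold lower, interval 1.94 to 2.90). Kcnip2 had 24 and 28 reads, with an interval that includes 1. The differences of Kcnip3 and Kcnip4 were thus close in size.

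The tandem-pore channels divided into 2 higher, 2 lower and 2 within the limit. Kcnk1, a weak background channel, was read 2992 times in the numerator and 0 times in the denominator library, at least 979-fold higher by the floor, and with the largest log2 ratio (11.5) of the 36 members. The lower end of its counting interval is 796-fold. Kcnk3, an acid-sensitive background channel, had 2265 and 2 reads (1112-fold, interval 308 to 9190). Both genes were therefore well covered in 1 library and close to unread in the other.

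Kcnk2, a stretch-activated channel described in myometrium, was read 472 times in the numerator and 1084 times in the denominator library, which is 2.34-fold lower with an interval of 2.10 to 2.61. Kcnk6, a relative of Kcnk1, had 744 and 1710 reads (2.34-fold lower, interval 2.15 to 2.55). Kcnk12 had 1696 and 1100 reads and Kcnk5, an alkaline-activated channel, 384 and 596, both within the limit. The differences of these 4 genes were all under 3-fold, unlike those of Kcnk1 and Kcnk3.

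The inward rectifiers among the members were little read, with 201 reads in the numerator and 248 in the denominator library over all 13. This does not hold for all inward rectifiers, since Kcnj8 and Kcnj11 are left out. Kcnj8 alone had 6 reads in the numerator and 5457 in the denominator library. Kcnj2, the classical strong inward rectifier, had 106 and 0 reads, at least 34.7-fold higher by the floor (lower end of the interval 27.7). Kcnj4, a strong rectifier of the same group, had 1 read and 100 reads (102-fold lower, interval 17.9 to 4061). Kcnj14, the third of that group with a mean of at least 20, had 72 and 101 reads (ratio 0.700, interval 0.510 to 0.957), within the limit. Kcnj2 and Kcnj4 were thus read almost wholly in different libraries.

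**Figure D3:**
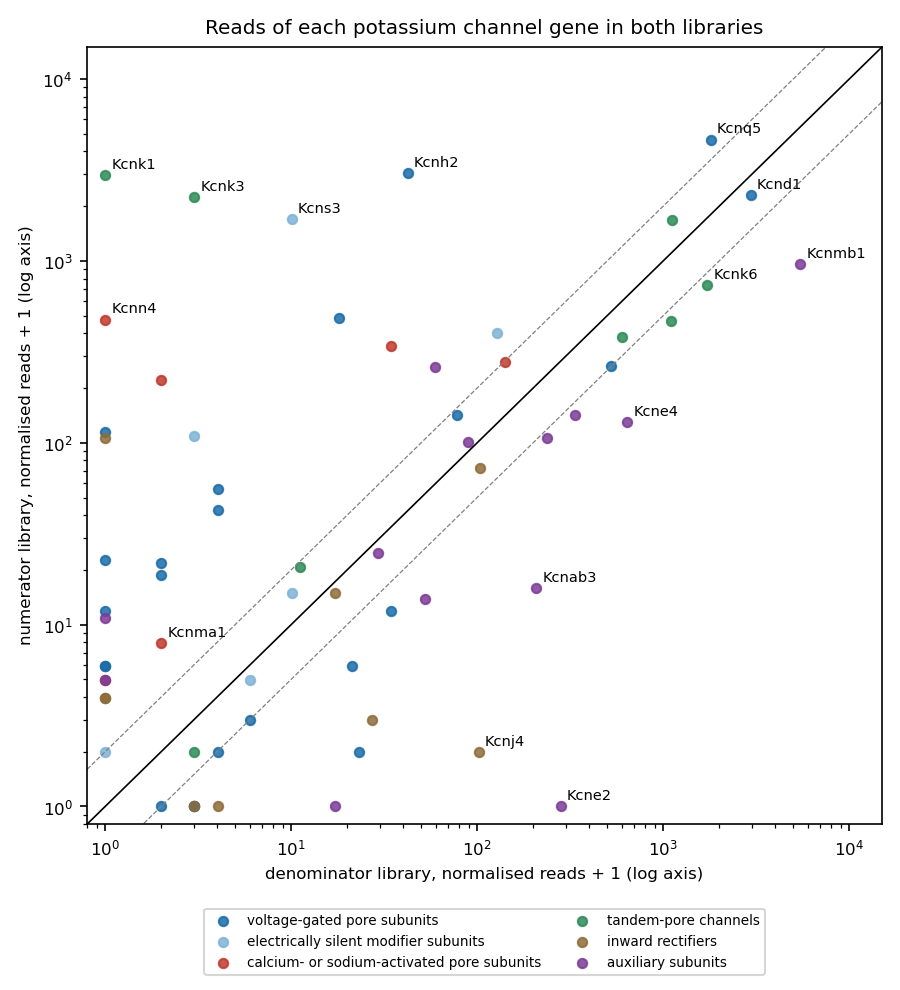
Normalised reads plus 1 of the 65 potassium channel genes that were read, in the numerator library (vertical, log axis) and the denominator library (horizontal, log axis), coloured by class; the solid line marks equal values and the dashed lines 2-fold. Kcnk1, Kcnk3, Kcns3 and Kcnh2 lie far above the line, Kcne2, Kcnj4, Kcnab3 and Kcnmb1 below it, and Kcnd1 close to it.

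Subfamilies differed in whether their members shared a direction. Of 10 subfamilies with 2 or more members at a mean of at least 20, 4 (Kcnh, Kcnab, Kcnk and Kcnj) held both higher and lower members. Of the others, Kcne, Kcnip and Kcnmb each held 2 lower and 0 higher members, and Kcnn 2 higher and 0 lower. Kcnd and Kcnt each held 1 higher and 0 lower, with the rest within the limit. The subfamilies are small and no share over other gene families was taken, so a shared direction shows nothing particular to them.

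Among the 29 members read with a mean under 20, the sum over both libraries was 1 to 30 reads, with a median of 7. Of these, 9 had fewer than 4 reads in all. The interval lay above 1 for 5 of the 29 and below 1 for 4. No such share was taken over all genes with means this low, so these counts show nothing particular to the members. The 5, some of them named after their values were seen, include Kcna3 with 22 reads in the numerator and 0 in the denominator library, Kcna7 (21 and 1), Kcnh8 (18 and 1) and Kcne5 (10 and 0). The 4 were Kcnb2 (1 and 22), Kcnj10 (2 and 26), Kcnip1 (0 and 16) and Kcna6 (5 and 20). Kcna5, a voltage-gated channel of vascular muscle, had 0 reads and 1 read, and Kcnq1, whose product pairs with Kcne subunits, had 2 and 5. Kcnj9 (14 and 16 reads) and Kcnk4 (20 and 10), those nearest the limit, had intervals that include 1.

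In the authors' deposited table the fold change is shrunken towards 0, and its order of the members differed from that of the reads. By that table's log2 fold change Kcnh2 ranked first at 3.17 (SE 1.23), followed by Kcns3 at 2.94 (SE 1.24). Kcnk1, first of 36 by the ratio of reads, ranked 19 in the authors' deposited table at 0.43 (SE 0.84). The other genes unread in the denominator library, Kcnn4, Kcnh1 and Kcnj2, stood there at 1.67, 1.16 and 1.13. At the low end of the authors' deposited table stood Kcnmb1 at -1.97 (SE 1.02), while Kcne2, the lowest by reads, had -1.51 (SE 1.18). All 36 members had the same sign by both measures. For Kcnmb1 this was fixed beforehand, since the pair of reads with the opposite sign was not used. The authors' deposited table gives an unadjusted p under 0.05 for 4 of the 65 members read (6.15%), against 3.23% of all genes read, and an adjusted p under 0.05 for 0 of them. Kcnh2, Kcns3 and Kcnk3 were among the 4. Those p-values come from 1 library per group.

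**Figure D4:**
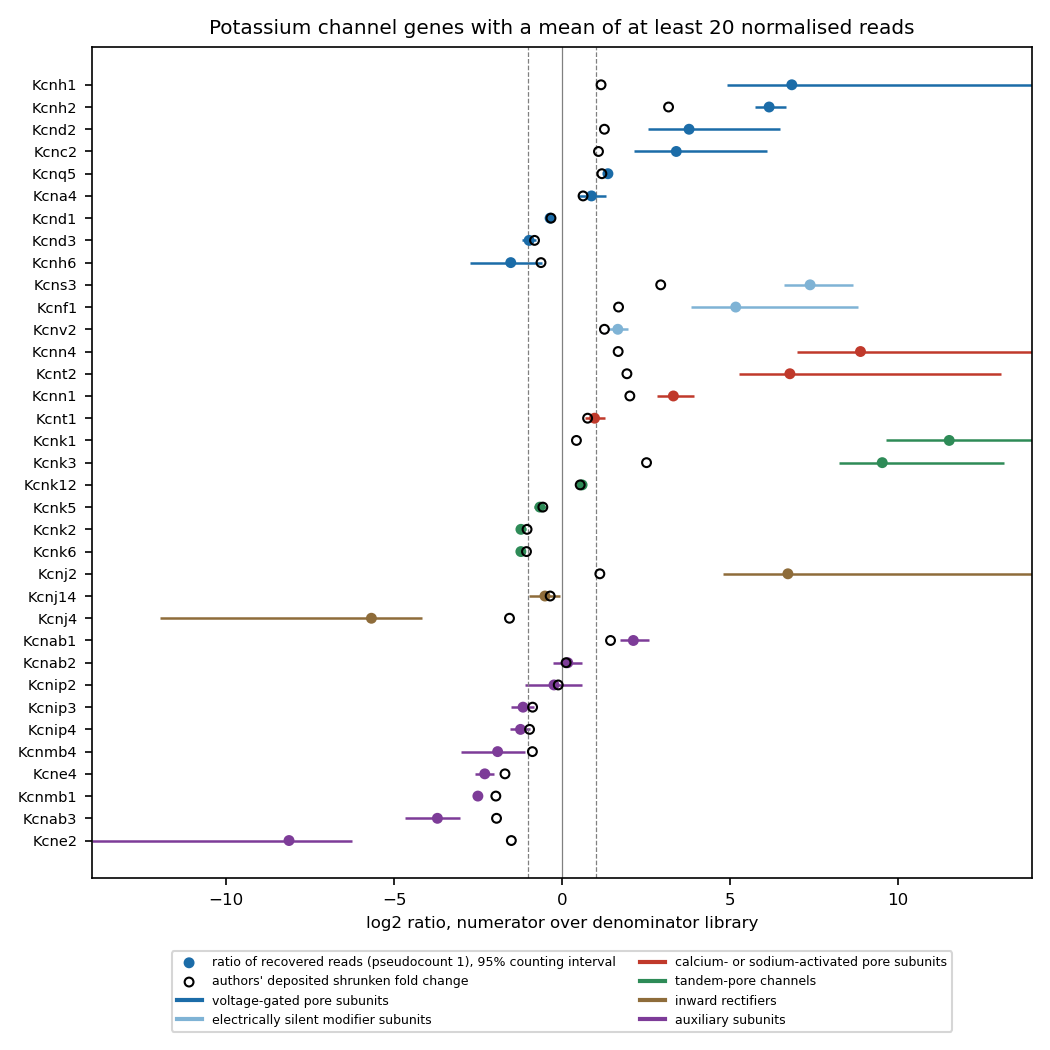
Log2 ratio of the numerator to the denominator library for 35 of the 36 potassium channel genes with a mean of at least 20, by class: filled points with 95% counting intervals are ratios of recovered reads with a pseudocount of 1, and open points are the authors' deposited fold changes. Intervals that reach the frame are open on that side because 1 library had 0 reads. Most auxiliary subunits lie left of 0 and most voltage-gated, modifier and activated subunits right of it. Tandem-pore channels and inward rectifiers lie on both sides.

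Marker genes gave the setting of these values. Of all genes with a mean of at least 20, 13.9% were higher and 12.7% lower. All 8 smooth muscle markers reached a mean of 20, with 1673867 reads in the numerator and 925375 in the denominator library, 2 of them higher and 0 lower. Of 7 pericyte markers 6 reached it, 5 of them lower, with 82118 and 391525 reads in all. That list holds Kcnj8 (6 and 5457 reads) and its partner Abcc9 (38 and 168646), the largest part of the denominator sum. Cspg4 stayed within the limit (31833 and 28088 reads). Rgs5, whose mean was under 20, ran the other way with 22 and 0 reads. Of 8 endothelial markers 6 reached it, 1 higher and 4 lower (13049 and 16808 reads), with Kdr at 0. Most of that sum is Flt1 (12375 and 8696 reads), whereas Cdh5 had 2 and 2166 reads and Esam 73 and 5582. Of 8 neural markers 3 reached it, 1 higher (6446 and 3864 reads), with Rbfox3 and Sox10 at 0. Of 7 macrophage markers 4 reached it, 1 higher and 2 lower (1669 and 2390 reads), with Ptprc and Adgre1 at 0. Of 6 epithelial markers 4 reached it, 1 higher and 1 lower (3069 and 1607 reads), with Cdh1 at 0. The part of other cell types in the potassium channel values was not tested.

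Some members lie side by side in the genome. RefSeq's GRCr8 annotation holds 10 pairs of members with at most 1 protein-coding gene between them, and in none did both reach a mean of 20. In 7 pairs neither did, among them Kcna1 beside Kcna6 and Kcnj1 beside Kcnj5, and in 3 only 1 did. Most of the 10 pairs join Kcna or Kcnj genes, of which 1 of 8 and 3 of 13 reached it, against 40.9% of all members. No share over neighbouring genes in general was taken, so these counts show nothing particular to neighbouring members. Of the 36 members with this mean, 15 overlap another annotated gene, 2 of them a gene listed under its current symbol. The share of all genes with an overlap was not taken. Earlier symbols of the overlapping genes were not searched. Kcnv2, which overlaps the protein-coding gene Pum3, may therefore overlap a listed gene as well. Kcnmb1 overlaps Kcnip1 (0 reads in the numerator and 16 in the denominator library), and Kcnab2 overlaps Nphp4 (753 and 1076 reads). The sources used here do not say whether strand was used in counting, so reads of overlapping genes cannot be told apart with certainty.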

How the data were processed

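RNA of 2 pooled samples of rat myometrial progenitor cells was sequenced as single 36 base reads, per the labels' protocols. The submitters' processing notes name DESeq2, featureCounts, TopHat, SAMtools and FastQC, and the builds rn5 and rn4, with no version or setting. The 1 file is the authors' deposited result table. Per the file headers its mean is a linear signal, read counts over size factors averaged over both libraries. Its fold change and standard error are on a log2 scale, its statistic is a score and its p-values are the authors' own.

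The 2 smallest means gave size factors of 1.01 (numerator library) and 0.991 (denominator library). Their ratio is a ratio of whole numbers, so each mean fixes a weighted sum of both libraries' reads. Every mean above 0 met whole reads within 0.001 of this grid. For 64 of the 65 members read, only 1 pair of read counts was possible. Kcnmb1 had 2, and the pair whose shrunken fit met the deposited standard error was taken (964 and 5382, not 6383 and 60). Of all 13221 genes read, 3914 were settled in that way or, with a fold change near 0, by the deposited fold change. The recovery was tested on simulated data.

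Log2 ratios used a pseudocount of 1, and folds none. Intervals are exact Clopper-Pearson. Since PCR copies cannot be told from molecules, intervals and floors (3 reads per library) cover counting error only. Members with a mean of at least 20 were named, except that some genes are not reported here. Members and lists were chosen with earlier results of these data known. Python 3.11.15, numpy 2.4.6, scipy 1.17.1 and pandas 2.3.3 were used.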

Additional observations from a re-analysis of the deposited data

How the results depend on the processing

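The counts of members higher (16) and lower (11) kept within 1.5 times of these values with no minimum mean (21 and 15), a minimum of 100 (11 and 8), a fold limit of 1.5 (19 and 13) and scaling by library totals (16 and 11). Leaving out genes with several possible pairs of reads, chosen after seeing the data, gave 16 and 10. A fold limit of 4 left 14 higher but only 5 lower, and the authors' deposited fold change, shrunken towards 0 by construction, gave 15 higher but 7 lower. The median log2 ratio ran between 0.49 (deposited fold change) and 0.88 (minimum of 100). Minimums of 10, 50 and 100 left 44, 31 and 25 members. No member with a mean of at least 20 changed sign with a pseudocount of 5, library totals or the deposited fold change. For Kcnmb1 the sign by the deposited fold change was fixed by the choice of its pair of reads. No paired analysis was possible because each group has 1 library. Depth limits the silent and low-read members, and the lack of replicates limits all others.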

Other observations

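Relatives and partners of the potassium channels were read as follows. Of all genes with a mean of at least 20, 13.9% were higher and 12.7% lower, which is the share to set beside each count; the lists are short and were not tested. Of 10 HCN and CNG genes, relatives in the voltage-gated superfamily, 4 had a mean of at least 20, 3 of them higher and 1 lower. Hcn4, a pacemaker channel of the sinus node, was read 365 times in the numerator and 0 times in the denominator library. This is at least 119-fold higher by the floor (lower end of the interval 96.7). Cnga1 had 30 and 13 reads (2.27-fold higher, interval 1.15 to 4.73). Hcn2 had 768 and 1535 reads (2.04-fold lower, interval 1.87 to 2.22).

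Of 24 genes of potassium and chloride transport, 14 had a mean of at least 20, with 3 higher, 4 lower and a median log2 ratio of 0.11. Slc12a2, the sodium-potassium-chloride cotransporter, had 37838 and 2280 reads (16.3-fold higher). Atp1b3, a sodium pump beta subunit, had 72749 and 13613 reads (5.25-fold higher). Ano1, a calcium-activated chloride channel, had 359 and 133 reads (2.65-fold higher). The lower genes include the sodium pump subunit Atp1b2 (104 and 248 reads) and the pump regulators Fxyd1 (887 and 2401) and Fxyd7 (37 and 142).

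Of 21 channel-associated proteins 20 were listed and 13 had a mean of at least 20, with 5 higher and 0 lower (median 0.33). The higher genes include the ankyrin gene Ank3 (5283 reads in the numerator and 485 in the denominator library), the scaffold gene Cask (9313 and 1775), the kinase gene Sgk1 (26407 and 7394) and the calmodulin gene Calm2 (73793 and 32040). The A-type partner genes Dpp6 and Dpp10 and the 4 Lrrc genes of the large-conductance channel (Lrrc26, Lrrc38, Lrrc52 and Lrrc55) were listed at 0.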
